A study of Mus musculus with 12 samples.

Results

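Retinoic acid is made from retinal by the enzymes encoded by Aldh1a1, Aldh1a2 and Aldh1a3, is broken down by the cytochromes encoded by Cyp26a1, Cyp26b1 and Cyp26c1, and is carried in the cytosol by the proteins of Crabp1 and Crabp2. It acts through nuclear receptors, and the gene of one of them, Rarb, is itself a classical target of the signal. These 9 genes were described here as a group across 12 RNA sequencing libraries from mouse embryos. They were found by symbol in the deposited count table, which held a row for 9 of 9 among its 24421 genes, and 9 of 9 were among the 14810 genes with enough counts to be tested.

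In the embryonic head, cells that make retinoic acid and cells that destroy it sit beside each other, so that the signal forms gradients along the hindbrain, the pharyngeal arches, the eye and the nasal region. Aldh1a2 is the main synthetic enzyme of trunk mesoderm and somites, Aldh1a3 of the eye and olfactory region, and Aldh1a1 of the dorsal retina. The Cyp26 enzymes keep the anterior head low in the signal, and both an excess and a lack of it are known to disturb cranial neural crest and the face.

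Eftud2 encodes a GTPase that belongs to the U5 particle of the spliceosome. All embryos carried an Eftud2 alteration that the labels describe as specific to neural crest, on the C57Bl/6 strain. The 4 groups, each of 3 libraries, were Eftud2+/- embryos (called heterozygous here, the controls) and Eftud2-/- embryos (called homozygous, the mutants) at embryonic day 9.0 (E9.0), and the same genotypes at E9.5. The controls thus carried the alteration too, and there was no group without it. The Cre driver and the number of embryos behind a library are not given in the sources used here, nor is it said that replicates came from separate litters, so the p-values measure only the spread between these libraries. The labels disagree on the tissue, naming neural crest cells, cranial nerve ganglia and, in the protocol, embryo heads. Marker genes of endothelium, pharyngeal endoderm, surface ectoderm, forebrain, primitive red cells and heart were all detected beside those of neural crest. Of 8 somite and trunk mesoderm markers, Tbx6, Ripply2 and Hoxc6 stayed under 0.5 CPM in all 12 libraries, while Meox1 reached 37.8, Pax1 9.14, Tcf15 6.42, Uncx 1.89 and Hoxb6 1.43 CPM.

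Library totals ran from 13914543 to 31172708 counts. The ribosomal RNA row Rn45s held 37.4% of all counts in replicate 1 of the heterozygous E9.0 group. It held 6.05% to 16.2% in the other E9.0 libraries and 4.4% to 5.9% in those of E9.5. Library sizes after the scaling given below ran from 13302400 to 23255600 at E9.0 and from 26666600 to 34073400 at E9.5. In the stage comparisons, a change with stage cannot be told apart from these differences between libraries. Levels below are CPM, the usual depth-normalised count, with library sizes scaled by trimmed mean of M values (TMM), and changes are log2 fold changes with standard errors and Benjamini-Hochberg adjusted p-values from edgeR's quasi-likelihood F test over all 14810 genes. A change was called at an adjusted p under 0.05. Eftud2 itself was at 286 ± 14.6 CPM in heterozygous and 234 ± 1.96 CPM in homozygous libraries at E9.0 (SD, n = 3), a log2 difference of -0.29 ± 0.05 with an edgeR adjusted p of 0.0193. That call was lost with total counts as the only scaling (-0.08, edgeR adjusted p = 0.751) and with only the groups compared (0.141), and it held in 3 of 6 fits without a library. At E9.5 it was at 256 ± 8.44 and 224 ± 2.96 CPM (log2 -0.19 ± 0.05, edgeR adjusted p = 0.0906; DESeq2 0.0134), and every homozygous library was below every heterozygous one at both stages.

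Retinoic acid receptors bind pairs of a short core sequence, and in several retinoic acid targets the pair is a direct repeat with 5 bases between the cores. Such a repeat was searched on both strands in the RefSeq promoter windows of build GRCm38.p6, which run from 250 bases before to 50 after a gene's start, with each core being the motif AGGTCA, the motif AGTTCA, the motif GGGTCA or the motif GGTTCA. Windows were at hand for 7 of the 9 genes, the exceptions being Aldh1a3 and Crabp2. Cyp26a1 and Rarb held the repeat, as did 32 of all 32851 windows (0.0974%), and the windows of the other 5 genes held neither this one nor the repeats with 1 or 2 bases between the cores (0.222% and 0.268% of windows). The bases before the start are shown for the pair that held it, since one of these genes differed between genotypes below and the other did not pass the test. Capitals mark the cores.
Cyp26a1, chr19:37697558-37697807, plus strand: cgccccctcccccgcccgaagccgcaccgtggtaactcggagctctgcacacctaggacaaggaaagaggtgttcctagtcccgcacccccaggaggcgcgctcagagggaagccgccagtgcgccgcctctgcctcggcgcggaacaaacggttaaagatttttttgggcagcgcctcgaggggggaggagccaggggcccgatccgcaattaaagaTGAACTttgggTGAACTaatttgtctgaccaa
Rarb, chr14:16575477-16575726, minus strand: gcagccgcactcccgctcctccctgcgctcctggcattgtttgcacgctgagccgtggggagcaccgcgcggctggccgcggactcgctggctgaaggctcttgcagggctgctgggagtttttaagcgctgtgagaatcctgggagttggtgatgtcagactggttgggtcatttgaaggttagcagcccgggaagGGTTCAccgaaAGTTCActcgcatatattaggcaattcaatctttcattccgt
In Cyp26a1 the repeat lies from base -32 to -16 before the RefSeq start and reads on the opposite strand of the gene. In Rarb it lies from -53 to -37 and reads with the gene. The Rarb window lies inside the gene's annotated span, chr14:16430839-16819156, because the gene has starts farther upstream. These matches describe letters in a window and were not tested for binding.

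The Cyp26 genes of retinoic acid breakdown were the part of the pathway that was higher in mutant libraries. Cyp26c1, whose enzyme clears retinoic acid in head mesenchyme and the hindbrain, rose 1.8-fold in homozygous embryos at E9.5. Averaged over both stages, Cyp26c1 and Cyp26a1 rose. In the other direction, Crabp1, which binds retinoic acid in the cytosol and is strongly expressed in migrating neural crest, fell at E9.5. Aldh1a1, Aldh1a2, Aldh1a3, Cyp26b1, Rarb and Crabp2 passed the test in no genotype comparison.

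Of the 9 genes, 0 were called at E9.0, where 0.587% of all genes tested were called (87 genes; 1969 had an unadjusted p under 0.05, and DESeq2 called Cyp26c1). At E9.5, 1 was called higher and 1 lower, where 1.89% of all genes were called, 1.19% higher and 0.702% lower. Averaged over both stages 2 were called higher and 0 lower, where 2.96% of all genes were called, 1.82% higher and 1.14% lower. The median log2 fold change of the 9 genes was 0.16 at E9.0, 0.29 at E9.5 and 0.19 on average, against 0.00 over all genes tested in each. At E9.0 all homozygous libraries were above all heterozygous ones for 2 of the 9 genes, a separation in that direction seen for 9.07% of all genes. At E9.5 this held for the same 2 genes, Cyp26a1 and Cyp26c1 (11.4% of all genes), and the opposite order held for 1, Crabp1 (9.47%).

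**Figure D1:**
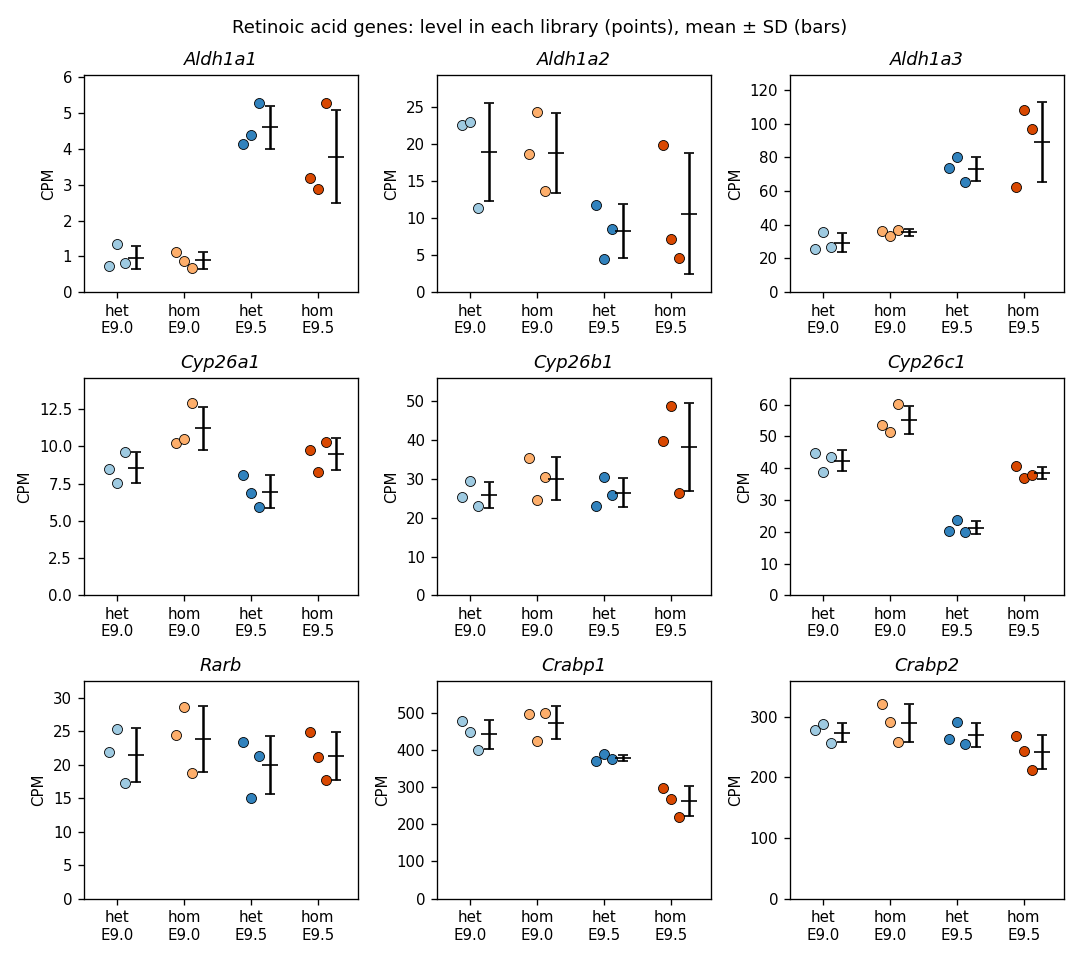
CPM of the 9 retinoic acid genes (vertical axes, each from 0) in each library (points) of the 4 groups, with the group mean ± SD of 3 libraries beside them (het, heterozygous; hom, homozygous). Cyp26c1 lies between 36.9 and 40.6 in homozygous E9.5 libraries and between 19.9 and 23.6 in heterozygous ones, Crabp1 separates the genotypes at E9.5 only, and the points of Aldh1a2 overlap between genotypes at both stages.

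Cyp26c1 stood at 44.8, 38.8 and 43.6 CPM in heterozygous E9.0 libraries and at 53.7, 51.4 and 60.1 CPM in homozygous ones. At E9.5 it stood at 20.3, 23.6 and 19.9 CPM in heterozygous and at 40.6, 36.9 and 37.8 CPM in homozygous libraries. The genotypes did not overlap at either stage, and the homozygous E9.5 libraries lay close to the level of the heterozygous E9.0 ones. The E9.0 difference of 0.38 ± 0.08 on the log2 scale had an adjusted p of 0.0548 by edgeR, just over the threshold. The E9.5 difference of 0.85 ± 0.08 had one of 7.5e-05, and ranked 4 among 14810 genes by p. Averaged over the stages it was 0.61 ± 0.06 (edgeR adjusted p = 2.0e-05). The E9.5 call held when each of the 6 libraries was left out in turn, with log2 fold changes between 0.81 and 0.94, and in 9 of 9 other settings. The difference between the stages in the genotype effect was 0.47 ± 0.12 (edgeR adjusted p = 0.213) and was not called, as was the case for all 9 genes; 10 genes of 14810 were called in that comparison (0.0675%), 1274 had an unadjusted p under 0.05, and DESeq2 called 1 of the 9 genes there, Crabp1.

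Cyp26a1, an enzyme gene directly induced by retinoic acid, lies next to Cyp26c1. In the GENCODE M21 annotation of build GRCm38, Cyp26c1 spans chr19:37685581-37693398 and Cyp26a1 spans chr19:37697798-37701536, both on the plus strand with 4399 bases between them. Cyp26a1 was at 8.44, 7.56 and 9.63 CPM in heterozygous and 10.2, 10.5 and 12.9 CPM in homozygous libraries at E9.0. The E9.5 values were 8.08, 6.87 and 5.93 CPM against 9.75, 8.29 and 10.3 CPM. Each homozygous library was above each heterozygous one of its stage, by narrow margins at both. Neither single stage was called, with log2 fold changes of 0.39 ± 0.15 and 0.44 ± 0.14 (edgeR adjusted p = 0.271 and 0.134), and only their average, 0.41 ± 0.10, passed the test (0.0354). That call is fragile, as it held in 5 of 12 fits that left out a library, with an adjusted p of up to 0.104, and limma-voom gave 0.0512. Across the 12 libraries the log2 CPM of the neighbours had a Pearson r of 0.833, a description over libraries that share stage and genotype.

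Cyp26b1, whose enzyme shapes retinoic acid in the hindbrain and in later skeletal tissue, varied more between libraries. It was at 25.3, 29.5 and 23 CPM in heterozygous and 35.4, 24.5 and 30.5 CPM in homozygous libraries at E9.0, and at 23, 30.4 and 25.8 against 39.8, 48.8 and 26.3 CPM at E9.5. The genotypes overlapped at both stages, through homozygous replicate 2 at E9.0 and replicate 3 at E9.5. The later log2 fold change of 0.54 ± 0.21 was not called (edgeR adjusted p = 0.292), and without homozygous E9.5 replicate 3 it was 0.75 (edgeR adjusted p = 0.0392). The average over both stages was 0.37 ± 0.15 (edgeR adjusted p = 0.243), or 0.0341 as the adjusted p without that same library.

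Divided by the length of each gene's exons, the 3 Cyp26 genes summed to 33.4 ± 1.65 CPM per kilobase in heterozygous and 42.8 ± 3.63 in homozygous libraries at E9.0 (SD, n = 3). At E9.5 the sums were 20.6 ± 1.8 and 33.9 ± 1.94 CPM per kilobase. The heterozygous sum at E9.5 was thus below that of E9.0, and the homozygous sum at E9.5 matched the heterozygous one at E9.0 within its SD. Cyp26c1 made up 72.5% and 73.7% of the sum at E9.0 and 59% and 64.9% at E9.5, in heterozygous and homozygous libraries respectively.

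**Figure D2:**
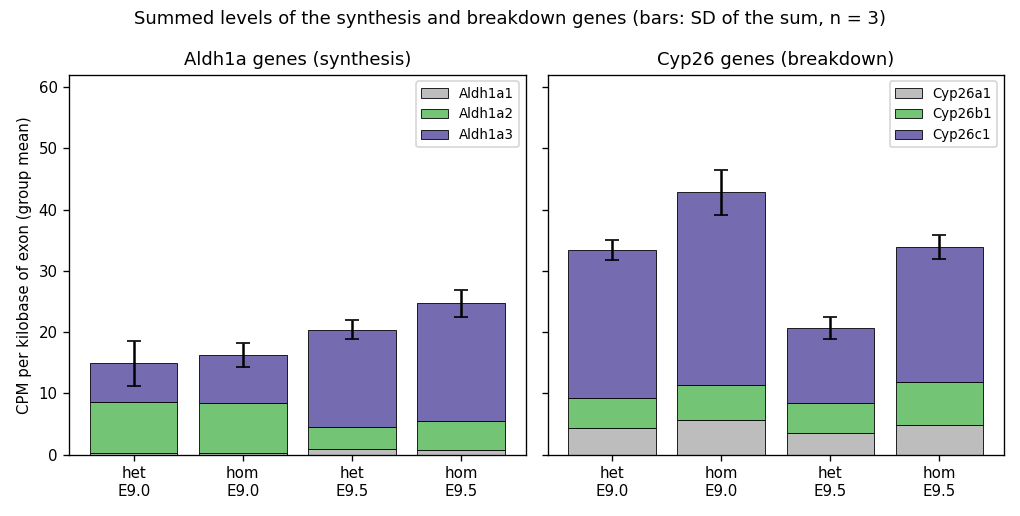
Group means, in CPM per kilobase of exon, of the Aldh1a genes (left) and the Cyp26 genes (right), stacked by gene, with the SD of the summed level over 3 libraries. The Cyp26 sum falls from 33.4 to 20.6 with stage in heterozygous libraries and from 42.8 to 33.9 in homozygous ones, and the Aldh1a sum at E9.0 is made up mainly of Aldh1a2 and Aldh1a3 together and at E9.5 mostly of Aldh1a3.

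Other tissues also differed between the genotypes in these bulk samples, in which a change in the number of cells of a type and a change in RNA per cell cannot be told apart. At E9.5 the summed level of 6 endothelial markers was 239 to 267 CPM in homozygous and 127 to 183 CPM in heterozygous libraries, and 5 of the 6 were called higher. The sum of 6 pharyngeal endoderm markers was 108 to 117 against 72.5 to 90.9 CPM, with Epcam and Pax9 called higher. The other 4 were not called, and Epcam alone, the largest part of that sum, was at 65.6 to 79.2 against 52.1 to 60.2 CPM. The sum of 8 eye and forebrain markers was 152 to 192 against 121 to 148 CPM, with Rax called higher and 7 not called. Among all genes tested, 1.19% were called higher at E9.5. Hindbrain markers, in contrast, overlapped, at 49.2 to 64.9 against 51.9 to 58.4 CPM, with 0 of 6 called. The part of these tissues in the Cyp26c1 difference was not tested.

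Cytosolic binding proteins hold retinoic acid in the cytoplasm and pass it to the Cyp26 enzymes or, in the case of the Crabp2 product, to the nuclear receptors. Crabp1 (chr9:54764748-54773110, plus strand, GRCm38) was the most abundant of the 9 genes per kilobase in all 4 groups. It was at 479, 449 and 399 CPM in heterozygous and 498, 424 and 501 CPM in homozygous libraries at E9.0, where the genotypes overlapped. At E9.5 it was at 370.5, 388 and 376 CPM in heterozygous libraries, which differed little among themselves, and at 299, 269 and 219 CPM in homozygous ones, all of them lower. The earlier difference, 0.10 ± 0.10 on the log2 scale, did not pass the test (edgeR adjusted p = 0.702), and the later one, -0.53 ± 0.10, did (0.0138). That call held in 6 of 6 fits that left out a library, with an adjusted p of at most 0.0477. It was lost when libraries were scaled by total counts alone (log2 -0.54, edgeR adjusted p = 0.085). With only the E9.5 groups fitted it was lost too (log2 -0.53, edgeR adjusted p = 0.0549). The size of the change thus stayed about the same in both. The change of the genotype effect between stages, -0.63 ± 0.14, was not called by edgeR (adjusted p = 0.18) but was by DESeq2 (adjusted p = 0.00977).

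Crabp2 did not differ by genotype at either stage by the test. It was at 279, 288 and 257 against 321, 291 and 258 CPM at E9.0 and at 264, 292 and 255 against 269, 243 and 213 CPM at E9.5, with overlap at both. Its log2 fold change at E9.5 was -0.16 ± 0.09 (edgeR adjusted p = 0.481). The share of Crabp1 in the summed level of both genes per kilobase was 72.6% ± 1.1 and 72.9% ± 2.91 at E9.0 (SD, n = 3). At E9.5 it was 69.8% ± 1.11 in heterozygous and 64.1% ± 1.06 in homozygous libraries, which did not overlap.

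Some markers of migrating neural crest, a tissue in which Crabp1 is known to be strong, were also lower. Of 6 such markers 3 were called lower at E9.5, namely Foxd3, Sox10 and Tfap2b, with 0 called higher. Over all genes tested, 0.702% were called lower and 1.19% higher at that stage. Tfap2a and Twist1 were not called (log2 -0.17 ± 0.17 and -0.29 ± 0.15). Neither was Ets1, which went the other way (0.40 ± 0.19). The summed level of the list overlapped, at 182 to 233 CPM in homozygous against 176 to 249 CPM in heterozygous libraries. Foxd3, a neural crest specifier, was among the 3 genes whose log2 CPM followed Crabp1 most closely over the 12 libraries (r = 0.940). It was at 2.99, 1.58 and 2.38 CPM in heterozygous and 1.08, 0.583 and 0.3 CPM in homozygous E9.5 libraries, a log2 difference of -1.80 ± 0.34 (edgeR adjusted p = 0.0148). At E9.0, where Tfap2b was the 1 marker called lower, Foxd3 and Crabp1 were not called (Foxd3 log2 0.05 ± 0.25, edgeR adjusted p = 0.951). The part of neural crest cells in the Crabp1 difference was not tested.

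**Figure D3:**
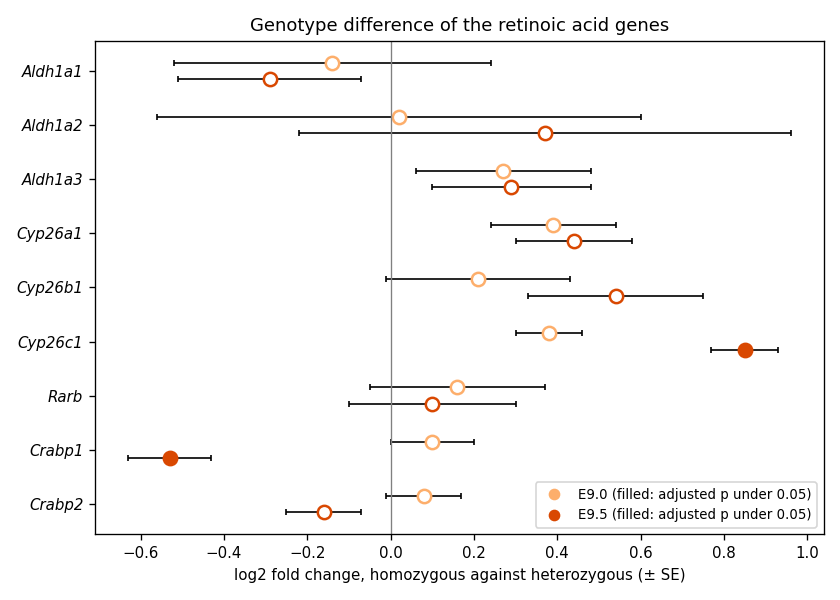
Log2 fold change (horizontal axis) of homozygous against heterozygous libraries for each of the 9 genes at E9.0 and E9.5, with the standard error from edgeR as bars and filled points where the adjusted p is under 0.05. The 3 Cyp26 genes lie above 0 at both stages, between 0.21 and 0.85, and Crabp1 lies at 0.10 at E9.0 and at -0.53 at E9.5.

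Among the synthetic enzymes, Aldh1a1 and Aldh1a3 changed with stage and Aldh1a2 was not called. Aldh1a3 rose about 2.5-fold from E9.0 to E9.5 in both genotypes, and Aldh1a1 rose from barely detected levels. At E9.0 Aldh1a3 was at 25.5, 36 and 26.6 CPM in heterozygous and 36.2, 33.2 and 37.2 CPM in homozygous libraries. Later, at E9.5, these levels were 73.7, 80.2 and 65.5 against 62.4, 108 and 96.9 CPM. No E9.5 library was as low as any E9.0 library, and the genotypes overlapped at both stages. The stage change was 1.31 ± 0.20 in heterozygous and 1.33 ± 0.20 in homozygous libraries on the log2 scale (edgeR adjusted p = 6.8e-04 and 6.0e-04). Between genotypes the change was 0.27 ± 0.21 for E9.0 and 0.29 ± 0.19 for E9.5 (edgeR adjusted p = 0.623 and 0.6). Averaged over the stages it was 0.28 ± 0.14 (edgeR adjusted p = 0.364), but 0.0358 was the adjusted p without homozygous E9.5 replicate 1, the library lowest in Aldh1a3 at that stage.

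Aldh1a1 had between 10 and 25 counts per library at E9.0, or 0.675 to 1.34 CPM, and 94 to 150 counts at E9.5, or 2.89 to 5.29 CPM. It overlaps C730002L08Rik and the pseudogene Gm6684 on the opposite strand in GENCODE M21, and the strand setting of the counts is not given in the sources used here. The stage change was 2.24 ± 0.28 in heterozygous and 2.09 ± 0.30 in homozygous libraries (edgeR adjusted p = 1.7e-05 and 6.2e-05). Neither genotype comparison passed the test (-0.14 ± 0.38, or 0.04 with total counts as the only scaling, and -0.29 ± 0.22). At such counts a modest genotype difference at E9.0 was not detectable.

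Aldh1a2, the enzyme that supplies the early embryo with retinoic acid, varied most among replicates, with a coefficient of variation of 28.5% to 77.8% within groups. It was at 22.5, 23 and 11.3 CPM in heterozygous and 18.6, 24.3 and 13.6 CPM in homozygous libraries at E9.0. The levels at E9.5 were 11.7, 4.52 and 8.49 against 19.9, 7.19 and 4.58 CPM. Homozygous E9.5 replicate 1 thus had as much Aldh1a2 as E9.0 libraries, and over 2 times that of any other homozygous E9.5 library. Between genotypes the change was 0.02 ± 0.58 for E9.0 and 0.37 ± 0.59 for E9.5 (edgeR adjusted p = 0.994 and 0.879), and the latter turned to -0.47 without that library. The stage change was -1.18 ± 0.59 in heterozygous libraries (edgeR adjusted p = 0.16). In homozygous ones it was -0.83 ± 0.59 (edgeR adjusted p = 0.309), or -1.67 with an adjusted p of 0.0354 without that library.

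Aldh1a2 varied from library to library together with 2 somite genes, Tcf15 and Meox1. The 3 genes whose log2 CPM followed it most closely over the 12 libraries, out of 12034 genes compared, were Tcf15 (r = 0.970) and Meox1 (r = 0.923), both transcription factors of somites, and Srp19 (r = 0.909), a part of the signal recognition particle. Meox1 was at 34.8 CPM in homozygous E9.5 replicate 1 and at 11.8 and 7.65 CPM in the other homozygous E9.5 libraries. Tcf15 was at 4.89 CPM in that library and at 2.21 and 1.35 CPM in the others. At E9.0 the lowest library of each genotype, replicate 3, was the same for Aldh1a2, Meox1 and Tcf15. Homozygous E9.5 replicate 1 was also the highest of its group for Pax1 (9.14 against 6.85 and 6 CPM), Uncx (1.89 against 0.89 and 0.938 CPM) and Hoxb6 (0.877 against 0.154 and 0.113 CPM). At E9.0 replicate 3 was the lowest of each genotype for Pax1, whereas Uncx was highest in it among homozygous libraries (1.5, 1.2 and 1.82 CPM). The summed level of 8 somite and trunk mesoderm markers was 16.2 to 51.9 CPM in homozygous and 17.9 to 27.7 CPM in heterozygous libraries at E9.5, with 0 of the 5 tested called in either genotype comparison, and Tbx6, Ripply2 and Hoxc6 stayed under 0.5 CPM in all groups. The part of trunk tissue in the Aldh1a2 values was not tested.

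**Figure D4:**
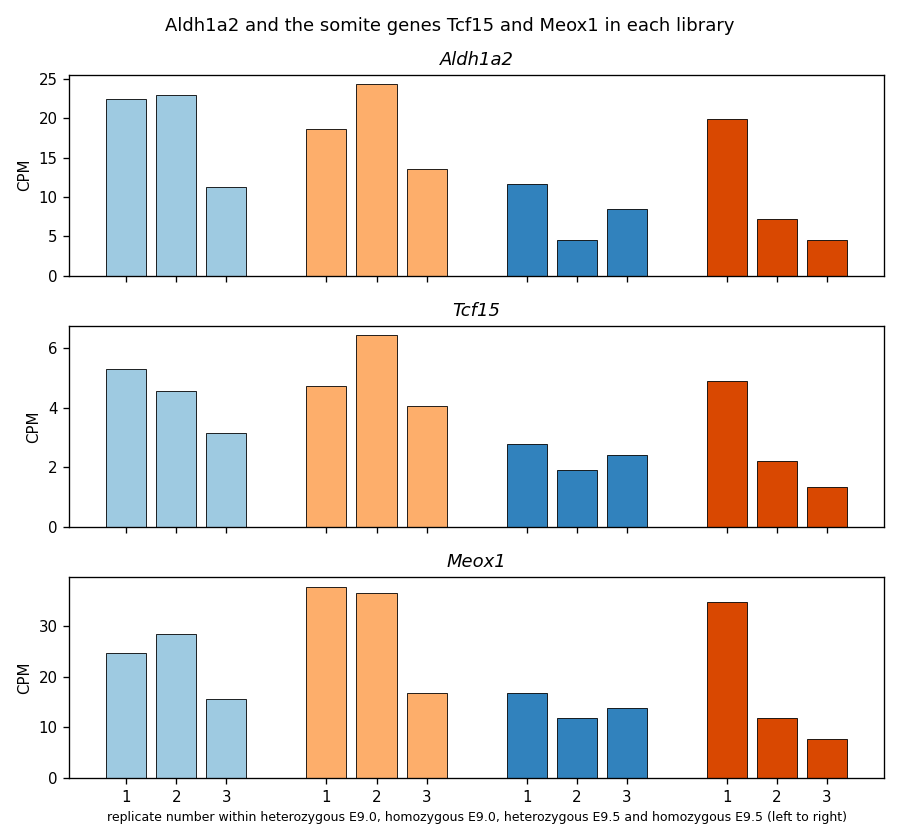
CPM of Aldh1a2, Tcf15 and Meox1 (vertical axes) in each of the 12 libraries, as bars grouped by heterozygous and homozygous E9.0 and heterozygous and homozygous E9.5, left to right. Replicate 1 of homozygous E9.5 is the highest of its group for all 3 genes, at 19.9, 4.89 and 34.8 CPM.

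Set against each other per kilobase of exon, Aldh1a2 and Aldh1a3 had shares within their SD of each other at E9.0 in homozygous libraries, and Aldh1a3 had the larger share at E9.5. Aldh1a2 made up 55% ± 8.99 and 50.7% ± 8.5 of the summed Aldh1a level at E9.0 in heterozygous and homozygous libraries (SD, n = 3) and 17.7% ± 7.06 and 19.5% ± 16.4 at E9.5. Aldh1a3 made up 43.7% and 48.2% at E9.0 and 77.7% and 77.4% at E9.5. The sums themselves were 14.9 ± 3.7 and 16.2 ± 1.96 CPM per kilobase at E9.0 and 20.4 ± 1.49 and 24.7 ± 2.18 at E9.5. Aldh1a1 held at most 5.64% of the sum in any library. With the longest transcript as the length, Aldh1a3 had the larger share at E9.0 too, at 50.2% against 47.5% for Aldh1a2 in heterozygous and 54.8% against 43.2% in homozygous libraries, and Aldh1a1 held up to 8.97%.

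Rarb, the receptor gene with the retinoic acid response repeat shown above, stayed between 15.1 and 28.6 CPM in all 12 libraries. It was at 21.9, 25.4 and 17.3 CPM in heterozygous and 24.4, 28.6 and 18.7 CPM in homozygous libraries at E9.0. The E9.5 libraries held 23.4, 15.1 and 21.3 against 24.9, 21.2 and 17.7 CPM, and all 4 groups overlapped. Between genotypes the change was 0.16 ± 0.21 for E9.0 and 0.10 ± 0.20 for E9.5 (edgeR adjusted p = 0.793 and 0.91), and the stage change was -0.11 ± 0.20 in heterozygous (0.27 with total counts as the only scaling) and -0.17 ± 0.20 in homozygous libraries (edgeR adjusted p = 0.73 and 0.556). Rarb overlaps Top2b and the antisense gene Gm48162 on the opposite strand. Over the 12 libraries its values followed those of Aldh1a2 (r = 0.793), Skap2 (r = 0.867), Frem1 (r = 0.826) and Sim1 (r = 0.818). Among the 3 receptor genes Rara, Rarb and Rarg, Rarb held 24.8%, 27.5%, 24.3% and 26.8% of the summed level per kilobase in heterozygous E9.0, homozygous E9.0, heterozygous E9.5 and homozygous E9.5 libraries.

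The breakdown and binding genes also moved with stage. From E9.0 to E9.5 Cyp26c1 fell by 0.99 on the log2 scale in heterozygous libraries (edgeR adjusted p = 4.4e-07) and by 0.52 in homozygous ones (edgeR adjusted p = 1.6e-04, but 0.0735 with total counts as the only scaling). In heterozygous libraries the value for Crabp1 was -0.23 ± 0.10 (edgeR adjusted p = 0.0923), or 0.16 with total counts as the only scaling and -0.22 with only the groups compared (0.0281), and it fell by 0.85 in homozygous ones (edgeR adjusted p = 1.4e-05). Crabp2 fell by 0.26 in homozygous libraries (edgeR adjusted p = 0.0334), a call that held in 2 of 6 fits leaving out a library and was lost with total counts as the only scaling (-0.09, edgeR adjusted p = 0.705) and without a filter (0.0742). Cyp26a1 and Cyp26b1 were not called in either genotype, although Cyp26b1 in homozygous libraries, at 0.36 ± 0.22 (edgeR adjusted p = 0.229), was called with total counts as the only scaling (0.53, edgeR adjusted p = 0.0496) and without homozygous E9.5 replicate 3 (edgeR adjusted p = 0.0167). In all, 2 of the 9 genes were called higher and 1 lower in heterozygous libraries, and 2 higher and 3 lower in homozygous ones, where 35.2% and 35.4% of all genes tested were called. Of all genes, 19.2% were called higher and 16% lower in heterozygous libraries, and 19.6% and 15.8% in homozygous ones. The stage and genotype comparisons share libraries. The larger stage fall of Crabp1 and the smaller one of Cyp26c1 in homozygous libraries restate the difference of the genotype effect between stages. That difference was -0.63 ± 0.14 for Crabp1 and 0.47 ± 0.12 for Cyp26c1. It was not called by edgeR for either gene (adjusted p = 0.18 and 0.213), while DESeq2 called it for Crabp1 (adjusted p = 0.00977). The embryos' somite numbers are not in the labels, so a difference in age between the genotypes within a stage cannot be told apart from genotype.

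Per kilobase of exon, the order of the 9 genes in heterozygous E9.0 libraries began with Crabp1 at 551 ± 49.9, Crabp2 at 208 ± 12.2 and Cyp26c1 at 24.3 ± 1.82 CPM per kilobase (SD, n = 3), whose ranges did not overlap. Aldh1a2 (8.36 ± 2.92) and Aldh1a3 (6.36 ± 1.26) followed with overlapping ranges, then Cyp26b1, Cyp26a1 and Rarb between 4.09 and 4.85, each overlapping its neighbour, and Aldh1a1 last at 0.195 ± 0.0666. In homozygous E9.0 libraries the first 5 places were the same. In heterozygous E9.5 libraries Aldh1a3, at 15.8 ± 1.59, passed Cyp26c1, at 12.2 ± 1.15 CPM per kilobase. In homozygous E9.5 libraries Cyp26c1 (22 ± 1.1) kept the third place with a range that overlapped that of Aldh1a3 (19.3 ± 5.16). With the longest transcript as the length, Crabp1, Crabp2 and Aldh1a1 kept the first, second and last places in all 4 groups. The ranges of Crabp1 and Crabp2 then overlapped in homozygous E9.5 libraries (273 to 373 against 229 to 288 CPM per kilobase). Those of Aldh1a1 and of Aldh1a2, the next above it, overlapped in heterozygous and homozygous E9.5 libraries. Aldh1a3 then stood above Cyp26c1 in homozygous E9.5 libraries, at 25.9 ± 6.92, with overlapping ranges.

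The rest of the retinoid pathway was read from 48 further genes in 5 lists, of which 42 could be tested. In retinol uptake and storage (4 tested), in retinol and retinal conversion (10 tested), in receptors and carriers (6 tested) and in receptor coregulators (6 tested), 0 genes were called in any genotype comparison. Among genes known to respond to retinoic acid (16 tested), 1 was called higher and 0 lower at E9.0 (0.432% and 0.155% of all genes tested). Both at E9.5 and on average, 3 were called higher and 0 lower. Of all genes tested, 1.19% were called higher and 0.702% lower at E9.5, and 1.82% and 1.14% on average. With total counts as the only scaling, 0 of all 42 were called at E9.0, 1 at E9.5 and 3 on average. Over all 42 genes the log2 fold changes had a median of 0.03 for E9.0 and -0.03 for E9.5, against 0.00 over all genes tested.

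Tbx1, a T-box factor of pharyngeal endoderm and head mesoderm, was at 28.2, 19.6 and 18.9 CPM in heterozygous and 27.3, 23 and 27.5 CPM in homozygous libraries at E9.0, which overlapped. At E9.5 it was at 12.9, 11.3 and 12.6 against 23.5, 23.9 and 24.1 CPM. Like Cyp26c1, it had fallen with stage in heterozygous libraries (log2 -0.85 ± 0.13, edgeR adjusted p = 1.1e-04), while in homozygous ones the stage change was -0.12 ± 0.12 (edgeR adjusted p = 0.486). The genotype change was 0.96 ± 0.12 at E9.5 (edgeR adjusted p = 9.2e-04). The difference of the genotype effect between the stages, 0.73 ± 0.18, was not called by edgeR (adjusted p = 0.195). For that difference edgeR called 0 of the 42 pathway genes and DESeq2 called 1.

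Tgm2, a transglutaminase gene induced by retinoic acid, was at 19.2, 19.5 and 18.4 against 24.6, 23.6 and 25.3 CPM at E9.0 and at 39.3, 38.6 and 40.4 against 45.6, 49.9 and 50.5 CPM at E9.5. Its groups did not overlap at either stage, and it was called at both (0.36 ± 0.07 and 0.30 ± 0.06, edgeR adjusted p = 0.0295 and 0.021). The call held in 1 of 6 fits without a library at E9.0 and in 2 of 6 at E9.5. At E9.0 it was also lost with total counts as the only scaling (edgeR adjusted p = 0.0884), limma-voom (0.0795), no filter (0.0503) and only the groups compared (0.127), and at E9.5 with total counts (0.641), while the average of 0.33 ± 0.05 (edgeR adjusted p = 0.00102) held in 12 of 12.

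**Figure D5:**
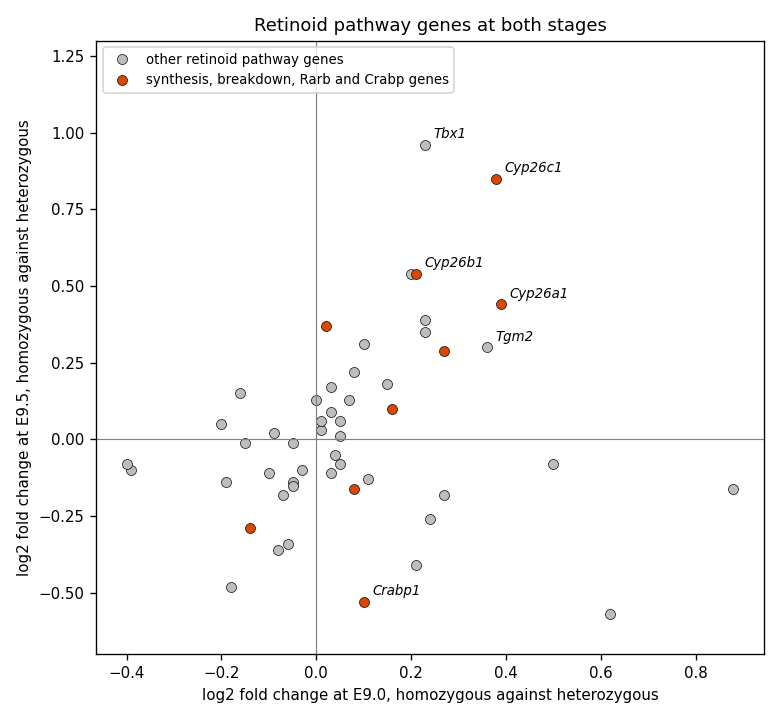
Log2 fold change of homozygous against heterozygous libraries at E9.0 (horizontal) and at E9.5 (vertical) for the 9 synthesis, breakdown, receptor and binding genes (orange) and 42 other retinoid pathway genes (grey). Tbx1 (0.96) and Cyp26c1 (0.85) lie highest on the E9.5 axis, and the 42 pathway genes have medians of 0.03 and -0.03.

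With stage, 4 of the 42 pathway genes were called higher and 7 lower in heterozygous libraries, and 4 higher and 6 lower in homozygous ones, where 35.2% and 35.4% of all genes tested were called. These counts turned with the scaling: with total counts as the only scaling 19 were called higher and 2 lower in heterozygous libraries, 21 in place of 11, and 6 higher and 2 lower in homozygous ones. Without heterozygous E9.5 replicate 3 the heterozygous count was 7. Among the called genes the largest rises were those of Tgm2 (1.05 and 0.99 on the log2 scale in heterozygous and homozygous libraries), the retinol dehydrogenase gene Rdh14 (0.84 and 0.73) and the coactivator gene Ncoa1 (0.72 and 0.76). Among the largest called falls were those of Tbx1 in heterozygous libraries, given above, and in homozygous ones of Cdx1 (-1.43 ± 0.34), a caudal homeobox gene of the posterior body, and Fgf8 (-0.39 ± 0.14), a signalling factor gene of pharyngeal and brain tissue. Cdx1 was at 2.26, 1.43 and 2.09 CPM in homozygous E9.0 and 0.978, 0.737 and 0.375 CPM in homozygous E9.5 libraries, without overlap. The Fgf8 call held in 1 of 6 fits without a library and was lost when total counts alone set the scale.

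The genes most like each of the other members were read from the same 12 libraries, which differ by stage and genotype. These values of r are thus descriptions that share stage and genotype. Genes chosen in this way, here and above, share a member's genotype difference in part by that choice. Cyp26c1 was followed by Fst, which encodes the activin antagonist follistatin (r = 0.942), P3h2 (r = 0.939) and Nrp2, a neuropilin receptor gene (r = 0.935). Like Cyp26c1, Fst and Nrp2 were higher in homozygous libraries at E9.5, by 0.60 ± 0.13 and 0.70 ± 0.09 on the log2 scale (edgeR adjusted p = 0.0278 and 0.00115). P3h2 was not called at that stage (0.34 ± 0.09, edgeR adjusted p = 0.0695). Nrp2 was at 94.7, 71 and 84.7 CPM in heterozygous and 149.9, 129.6 and 127 CPM in homozygous E9.5 libraries, without overlap.

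Cyp26a1 was followed by Fibcd1 (r = 0.939), Hexim1 (r = 0.904) and Kctd11 (r = 0.888), and Cyp26b1 by, among others, Rsad1 (r = 0.869) and Ltbp1 (r = 0.865). Of these 5 genes 3 were called higher at E9.5, namely Rsad1 by 0.63 ± 0.13, Kctd11 by 0.42 ± 0.09 and Ltbp1 by 0.31 ± 0.06 (edgeR adjusted p = 0.0218, 0.0277 and 0.0202). Beside Foxd3, Crabp1 was followed by Aurka, a mitotic kinase gene (r = 0.949), and Dus1l (r = 0.941), and Crabp2 by Gm5801 (r = 0.893), Med8 (r = 0.843) and Rnf113a2 (r = 0.835). Aurka changed far less than Crabp1 did, by -0.07 ± 0.05 between genotypes at E9.5 (edgeR adjusted p = 0.639). Aldh1a1 was followed by Pogk (r = 0.988), Rspo3 (r = 0.987) and Ubn1 (r = 0.986), and Aldh1a3 by Grb14 (r = 0.991), Pfkp (r = 0.976) and Gramd1c (r = 0.975).

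Between the 9 genes, the highest r over the 12 libraries was that of Aldh1a1 and Aldh1a3 (0.900), followed by Cyp26a1 and Cyp26c1 (0.833), Aldh1a2 and Rarb (0.793) and Crabp1 and Crabp2 (0.770). The most negative were those of Aldh1a1 and Cyp26c1 (-0.803) and Aldh1a3 and Crabp1 (-0.795), pairs whose stage changes had opposite signs.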

How the data were processed

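RNA of mouse embryos had been sequenced in 12 libraries, 3 in each of 4 groups, whose tissue the labels give in conflicting ways, and the authors deposited 1 table of raw counts per gene symbol. Per the submitters' processing notes the tools were cutadapt, STAR, featureCounts and MultiQC and the build was mm10; their versions, roles, annotation and strand setting are not given in the sources used here. All 12 columns matched a sample by label. Totals of 13914543 to 31172708 counts set the precision, and 3 counts equal 0.088 to 0.226 CPM. Genes were kept by filterByExpr (14810 of 24421), scaled by TMM and tested in R 4.3.3 with edgeR 4.0.16's quasi-likelihood F test (robust, 1 mean per group, two-sided, Benjamini-Hochberg over all genes tested). An exact permutation test of 3 libraries against 3 could not go below p = 0.1 and was not used for calls. Alternatives were other scalings, DESeq2 1.42.0, limma-voom (limma 3.58.1), other filters, only the groups compared, a replicate block and leaving out each library. The scripts were tested on simulated data. Counts were divided by the exon length of GENCODE M21 for levels between genes. Named are the 9 genes, Eftud2, pathway genes called by genotype, the 3 largest stage changes per direction, and the 3 genes most correlated with each member (log2 CPM, prior count 2, mean of at least 50 counts), plus marker lists; some genes that this rule selects are not reported here. Overlaps with opposite-strand genes leave Aldh1a1, Aldh1a2 (pseudogene Gm48124) and Rarb uncertain. The members and lists were chosen with earlier results of these data known. The comparison of protein sequences was not run.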

Additional observations from a re-analysis of the deposited data

How the results depend on the processing

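Scaling by total counts alone moved the median log2 fold change of all genes to 0.19 at E9.0, -0.19 for the difference between stages, and 0.38 and 0.18 for stage in heterozygous and homozygous libraries, and raised the share of calls that were higher from 73.6% to 96.2% at E9.0, from 61.5% to 84.8% on average, from 54.4% to 96.3% and from 55.3% to 87.1% with stage, and lowered it from 62.9% to 47.2% at E9.5. Under it, 1 of the 9 genes and 123 genes in all were called at E9.5, and 3326 genes with stage in homozygous libraries; sign changed for uncalled values of Aldh1a1 at E9.0 (0.04), Crabp2 on average (0.05), Aldh1a3 (-0.16) and Cyp26a1 (-0.14) in the difference between stages, and Cyp26a1 (0.07), Rarb (0.27), Crabp1 (0.16) and Crabp2 (0.35) with stage in heterozygous libraries. DESeq2 called 1 of the 9 genes and 216 in all at E9.0, 448 in all at E9.5, and 1 of the 9 and 76 in all in the difference between stages. Limma-voom called 51 genes at E9.0, 5 in the difference between stages, and 1 of the 9 on average. Without a filter 1 of the 9 was called at E9.0, and with only the groups compared 1 of the 9 at E9.5. Aldh1a2 at E9.0 was -0.01 by DESeq2 and 0.00 without a filter, and the difference between stages of Aldh1a3 was -0.03 by limma-voom. Apart from the altered scaling and the fewer libraries or genes, the cause was not tested.
Same-numbered libraries did not deviate together (correlations of 0.109, 0.031 and 0.03 at E9.0 and 0.045, 0.031 and 0.069 at E9.5), so the numbers were not taken to pair them. The replicate block gave 69, 248, 383 and 9 calls at E9.0, at E9.5, on average and for the difference between stages, against 87, 280, 439 and 10, with 0, 2, 2 and 0 of the 9 genes; it ended the E9.0 call of Tgm2 (edgeR adjusted p = 0.0623); Aldh1a3 was -0.02 in the difference between stages, and not every library correlated best with its own number.
Leaving out 1 library gave 0 to 1 of the 9 genes and 38 to 86 genes in all at E9.0, 133 to 252 in all at E9.5, 1 to 2 of the 9 and 246 to 411 in all on average, and 1 to 16 in the difference between stages. Uncalled values that changed sign ranged, for Aldh1a2, from -0.27 to 0.20 at E9.0, -0.47 to 0.72 at E9.5, -0.22 to 0.37 on average and -0.48 to 0.70 in the difference between stages; for Aldh1a1 from -0.33 to 0.16 at E9.0 and -0.45 to 0.04 in the difference; for Crabp2 from 0.00 to 0.15 at E9.0, -0.08 to 0.00 on average and -0.08 to 0.02 with stage in heterozygous libraries; for Rarb from -0.07 to 0.23 at E9.5, -0.23 to 0.09 in the difference and -0.25 to 0.06 with stage in heterozygous libraries; for Aldh1a3 and Cyp26a1 from -0.16 to 0.22 and -0.05 to 0.17 in the difference; and for Cyp26b1 from -0.09 to 0.13 with stage in heterozygous libraries. Depth limits Aldh1a1 at E9.0. The comparison of protein sequences was not run.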
